A study of Mus musculus with 10 samples.

Results

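A set of 10 genes of histone modifying enzymes was followed in the interscapular brown fat (iBAT) of mice, a tissue that burns lipid to keep the body warm. They were chosen by name as modifiers with a known or proposed part in brown fat (Kmt5a, Kmt5b, Kmt5c, Ehmt1, Ehmt2, Kdm1a, Hdac3, Ezh2, Kdm3a and Prdm3), and Kmt5c was included because it ranked high in the comparison of the knockout with wild type. The whole set was drawn up with earlier results of these data known. The table of 54347 gene records held 9 of the 10 names, and Prdm3 was read as Mecom, of which it is a synonym in RefSeq. In iBAT of cold-housed mice, all 10 genes passed the filter on low counts and 0 of 10 passed the test between genotypes. Kmt5c and Kdm3a were higher in every ΔGm15551 mouse than in every wild type mouse under TMM scaling, by 1.28-fold and 1.23-fold of the group means, beside 0.226% of all genes tested. For Kmt5c, which was picked on this contrast, the lowest ΔGm15551 mouse (49.7 CPM, counts scaled to a common library size with TMM factors) and the highest wild type mouse (49.6 CPM) were nearly level, and with library totals or DESeq2 size factors the groups overlapped.

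The study asked whether iBAT needs the lncRNA Gm15551. Poly A RNA was sequenced from iBAT of 5 ΔGm15551 mice (replicates 1, 2, 4, 5 and 7), in which CRISPR/Cas9 had removed the region of exon 1 of Gm15551, and of 5 wild type mice (replicates 2, 3, 5, 6 and 7). All mice were on the C57BL/6N background, 12 weeks old, fed chow and housed singly at 4 °C for 24 h before dissection, so that both groups shared the cold and no warm-housed mouse entered the comparison. Each sample was a separate mouse.

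Histone modifying enzymes add or remove methyl and acetyl groups on the tails of histones, and these marks accompany open or silent chromatin. Kmt5a places the first methyl group on lysine 20 of histone H4, and Kmt5b and Kmt5c add the further ones. In brown fat, Ehmt1 works with Prdm16 in fixing the brown over the muscle identity, Kdm1a and Hdac3 act as cofactors at thermogenic genes including Ucp1, the uncoupling protein that produces heat, and Kdm3a removes methyl groups from lysine 9 of histone H3 and takes part in the cold response.

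Total counts ranged from 12593971 to 14438903 per ΔGm15551 mouse and from 9680976 to 15771170 per wild type mouse. Gm15551 had 0 counts in all 5 ΔGm15551 mice and 1, 2, 6, 7 and 0 counts in wild type replicates 2, 3, 5, 6 and 7, a level too low to check the genotype of each mouse. The tissue carried its defining markers, with Ucp1 at 5747 to 10990 CPM in ΔGm15551 against 6436 to 9007 CPM for wild type. Skeletal muscle markers took 0.000158 to 0.157% of counts in ΔGm15551 and 0.000361 to 0.258% in wild type. In bulk tissue, fewer cells of a type and less RNA per cell cannot be told apart. Wild type replicates 5, 6 and 7 carried mouse numbers of a higher series that held no ΔGm15551 mouse, so that this series and genotype cannot be told apart in those mice.

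Across all 13732 genes tested by edgeR's quasi-likelihood test, 0% had an adjusted p under 0.05, 1.59% had an unadjusted p under 0.05, and 0.226% had every ΔGm15551 mouse above every wild type mouse. Of the 10 histone modifiers, 0 had an adjusted p under 0.05 by edgeR, DESeq2 or limma-voom, while 2 (Kmt5c and Kdm3a) had an unadjusted p under 0.05 by each of these tools. The same 2 genes had groups that did not overlap. Because Kmt5c was picked from this contrast, these counts describe the genes and support nothing. The other genes too were chosen with earlier results of these data known. The log2 fold change (log2FC, ΔGm15551 against wild type) was above 0 in 7 of the 10, beside 6830 of the 13732 genes tested. Kmt5c, picked on this contrast, is among the 7, as is Kdm1a at 0.02. The median was 0.11 in the 10, beside a median of -0.00087 over all genes tested.

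Kmt5c (ENSMUSG00000059851.15) lies on chromosome 7 of GRCm38, at 4740115 to 4747514 on the plus strand, and no annotated gene overlaps it. Kmt5c was at 59.2, 57.1, 49.7, 63.3 and 56.2 CPM in ΔGm15551 replicates 1, 2, 4, 5 and 7. In wild type replicates 2, 3, 5, 6 and 7, Kmt5c was at 49.6, 37.9, 40.7, 44.8 and 49.6 CPM. The lowest ΔGm15551 mouse (replicate 4) and the highest wild type mouse (replicate 2) were nearly level, and wild type replicate 7 stood beside them. The group means were 57.1 ± 4.96 and 44.5 ± 5.23 CPM (SD, n = 5 each), a log2FC of 0.36 with a standard error (SE) of 0.11. The counts behind these values were 668 to 825 per ΔGm15551 mouse and 443 to 689 per wild type mouse. Kmt5c was 10th of 13732 genes by p-value and 434th by log2FC. The gap between the groups depended on the scaling, since 3 of 5 ΔGm15551 mice exceeded the highest wild type mouse with library totals and 4 of 5 did so with DESeq2 size factors, while all 5 did so after a correction for GC content (lowest 51.1 against 49.2 CPM). The log2FC stayed above 0 in all 19 alternative fits, from 0.28 after the GC correction to 0.40 without ΔGm15551 replicate 4. These fits reuse the mice on which Kmt5c was picked, so their agreement supports nothing. The transcripts of Kmt5c are 58.8% GC, a content above that of 93.4% of the genes tested.

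Kdm3a (ENSMUSG00000053470.13), on chromosome 6 at 71588972 to 71632990 on the minus strand, was the other gene whose groups did not overlap. ΔGm15551 replicates 1, 2, 4, 5 and 7 had 16.7, 19.4, 15.3, 15.7 and 18.3 CPM of Kdm3a. Wild type replicates 2, 3, 5, 6 and 7 had 14.8, 14.7, 13.4, 13.9 and 12.8 CPM. The ΔGm15551 mice were spread more widely than wild type, with means of 17.1 ± 1.72 and 13.9 ± 0.836 CPM (SD, n = 5 each). The log2FC was 0.29 (SE 0.10). Kdm3a was chosen with earlier results of these data known, so these values are a description. With library totals 4 of the 5 ΔGm15551 mice lay above the highest wild type value. The log2FC ranged from 0.21, when the 3 higher-series wild type mice were left out, to 0.38 among only the 6 mice of replicate numbers 2, 5 and 7, which both genotypes have.

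The promoter windows of these 2 genes are shown because these were the genes whose groups did not overlap under TMM scaling, although neither passed the test. Each holds 250 bases before and 50 bases after a RefSeq transcript start (GRCm38.p6), 5′ to 3′, with each CG in capitals. The motif searched was CG, which reads the same on both strands. For Kdm3a, which has 3 such windows, the one farthest upstream is given.
Kmt5c, chr7:4739877-4740176, plus strand: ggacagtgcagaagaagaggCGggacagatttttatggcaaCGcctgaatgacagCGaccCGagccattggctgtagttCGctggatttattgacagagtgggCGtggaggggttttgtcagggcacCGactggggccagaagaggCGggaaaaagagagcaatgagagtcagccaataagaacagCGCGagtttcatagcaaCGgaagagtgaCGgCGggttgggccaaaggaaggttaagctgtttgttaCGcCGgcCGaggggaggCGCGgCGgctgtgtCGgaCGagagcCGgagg
Kdm3a, chr6:71632868-71633167, minus strand: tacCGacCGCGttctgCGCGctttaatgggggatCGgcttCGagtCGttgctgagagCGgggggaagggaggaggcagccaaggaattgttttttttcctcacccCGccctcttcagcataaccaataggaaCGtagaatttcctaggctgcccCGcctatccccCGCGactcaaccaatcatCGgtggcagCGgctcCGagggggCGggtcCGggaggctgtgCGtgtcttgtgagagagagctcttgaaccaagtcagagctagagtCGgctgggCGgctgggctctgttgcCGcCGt
The Kmt5c window holds 22 CG, more than 76.9% of the 32851 promoter windows, and the Kdm3a window holds 24, more than 80.0%. The other Kdm3a windows hold 40 CG, more than 96.1%, and 0 CG. At least 1 CG is present in 94.6% of all windows. No measurement in these data bears on the promoters themselves.

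**Figure D1:**
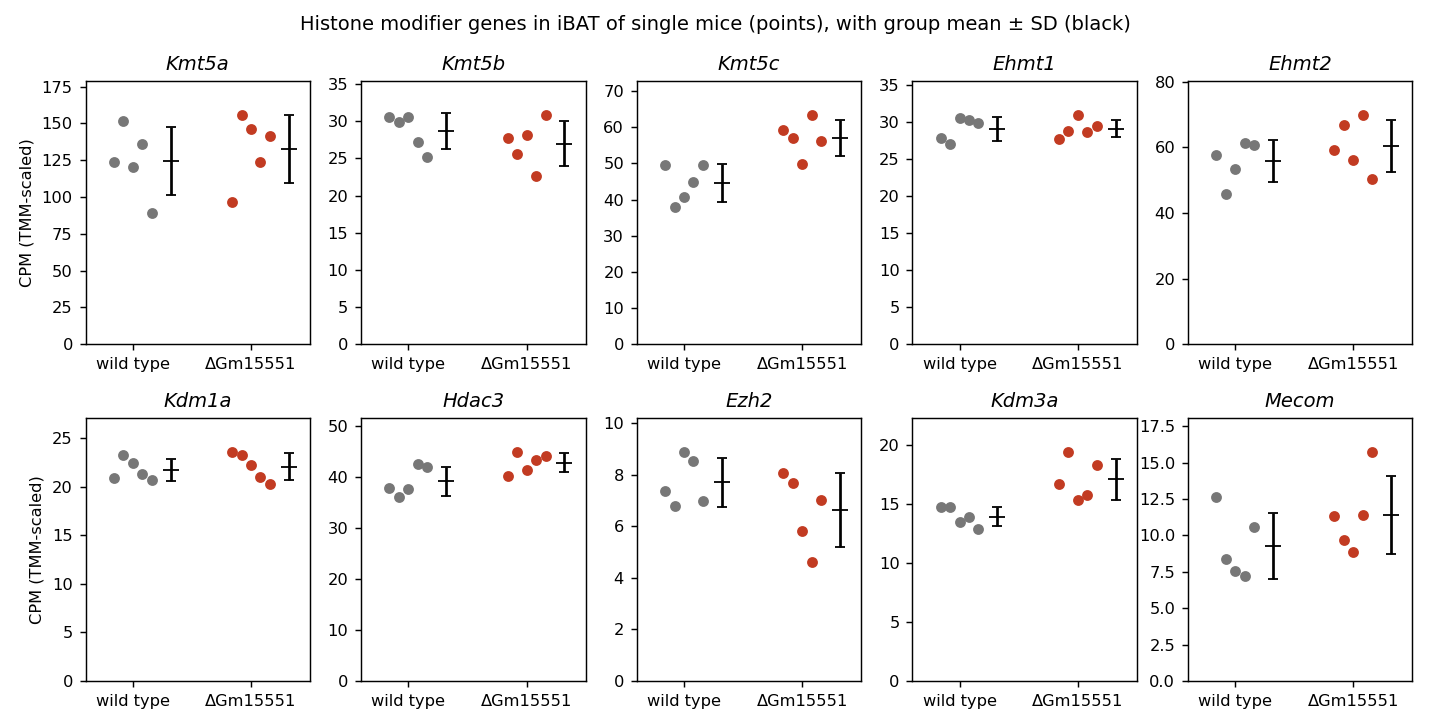
TMM-scaled CPM (vertical axes, from 0) of the 10 histone modifier genes in each of 5 wild type (grey) and 5 ΔGm15551 (red) mice, with the group mean ± SD in black. With this scaling the groups are apart for Kmt5c, and for Kdm3a, by a margin within 1 CPM in each, and they overlap for the other 8 genes.

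The remaining H4 lysine methyltransferases did not separate the groups. Kmt5a (chromosome 5, 124439930 to 124462308, plus strand) was at 96.8, 155, 146, 124 and 142 CPM in ΔGm15551 replicates 1, 2, 4, 5 and 7. Kmt5a was at 123, 152, 120, 136 and 89.4 CPM in wild type replicates 2, 3, 5, 6 and 7. A single mouse in each group was low, replicate 1 of ΔGm15551 and replicate 7 of wild type, and the log2FC was 0.10 (SE 0.16), with the opposite sign in 2 of 19 alternative fits, without wild type replicate 7 (-0.00) and without the higher-series wild type mice (-0.05). It was 0.19 without ΔGm15551 replicate 1, 0.18 without wild type replicate 3 and 0.34 in the 6 mice of numbers 2, 5 and 7, with or without the replicate block. Kmt5b (chromosome 19, 3767421 to 3818303, plus strand) had 22.7 to 30.8 CPM for ΔGm15551 and 25.2 to 30.6 CPM for wild type, a log2FC of -0.09 (SE 0.11) that was -0.03 without ΔGm15551 replicate 5 and -0.14 without ΔGm15551 replicate 7. An antisense gene, Gm16066, shares 6.28% of the exon bases of Kmt5b, but held only 6 counts over the 10 mice.

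Among the H3 lysine 9 methyltransferases, Ehmt1 and its partner Ehmt2 overlapped between groups. Ehmt1 lay between 27.7 and 30.9 CPM in ΔGm15551 and between 26.98 and 30.5 CPM in wild type, and its log2FC was -0.00 (SE 0.09), with a sign that turned in 9 of 19 alternative fits. Ehmt2 lay between 50.3 and 69.7 CPM in ΔGm15551 and between 45.8 and 61.3 CPM in wild type. Its log2FC of 0.12 (SE 0.12) became 0.02 after the correction for GC content, 0.05 without wild type replicate 3, 0.17 without ΔGm15551 replicate 7 and 0.22 without the higher-series wild type mice, and Ehmt2 transcripts are 59.8% GC. Mecom, the H3 lysine 9 methyltransferase listed as Prdm3, had 8.85 to 15.7 CPM in ΔGm15551 against 7.23 to 12.6 CPM for wild type. The log2FC of Mecom was 0.30 (SE 0.19), and it moved from 0.12 without the higher-series wild type mice to 0.44 without wild type replicate 2.

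The cofactors and the Polycomb enzyme overlapped between groups as well. Kdm1a, the demethylase of the CoREST complex, had 20.3 to 23.6 CPM for ΔGm15551 and 20.6 to 23.3 CPM for wild type, a log2FC of 0.02 (SE 0.09) that had the opposite sign in 2 of 19 alternative fits, without ΔGm15551 replicate 1 and without the higher-series wild type mice (-0.00 in each). Hdac3, the deacetylase of the NCoR complex, had 40.4 to 45.0 CPM for ΔGm15551 and 36.2 to 42.6 CPM for wild type, and 3 of 5 ΔGm15551 mice exceeded every wild type mouse (log2FC 0.13, SE 0.09). The log2FC of Hdac3 went from 0.10 without wild type replicate 3 to 0.21 without the higher-series wild type mice. Ezh2, which methylates lysine 27 of histone H3, had 4.60 to 8.07 CPM for ΔGm15551 and 6.77 to 8.87 CPM for wild type. The log2FC of Ezh2 was the lowest of the 10, at -0.22 (SE 0.17), but it was -0.11 without ΔGm15551 replicate 5 and -0.09 without the higher-series wild type mice, where Kmt5b was lower (-0.16).

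**Figure D2:**
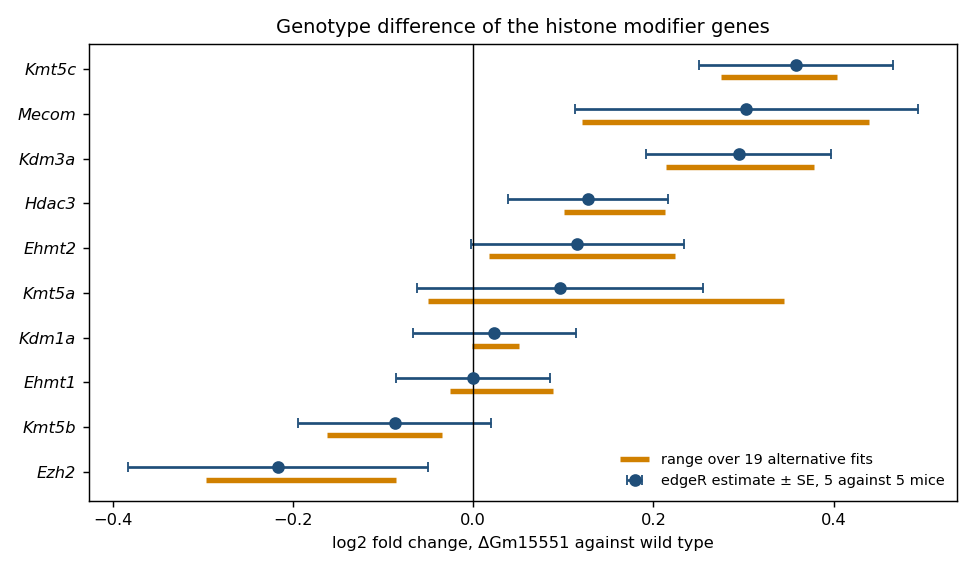
Log2 fold change between ΔGm15551 and wild type (horizontal axis) for each gene, with the edgeR estimate ± SE as blue points and bars (5 against 5 mice) and the range over 19 alternative fits in orange. The orange ranges of Kmt5a, Ehmt1 and Kdm1a cross 0.

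The 10 genes spanned a wide range of levels, compared here as CPM per kb of exon over all 10 mice (mean ± SD). Kmt5a was highest at 24.2 ± 4.19, followed by Kmt5c at 12.7 ± 2.04, Ehmt2 at 10.6 ± 1.31 and Hdac3 at 10.1 ± 0.735. Kdm1a (4.22 ± 0.235) and Ehmt1 (3.58 ± 0.163) were intermediate. Kmt5b (1.89 ± 0.185), Kdm3a (1.89 ± 0.255), Ezh2 (1.07 ± 0.190) and Mecom (0.833 ± 0.208) were lowest. The gap between Ehmt1 and Kmt5b depended on the length used, since they were at 4.88 and 4.54 per kb of the longest transcript, in the same order, while by mean transcript length Kmt5b (11.9) was above Ehmt1 (11.8). Per kb of all exons, each gene was above the next in all 10 mice, apart from Ehmt2 over Hdac3 (7 of 10), Kmt5b over Kdm3a (6 of 10) and Ezh2 over Mecom (8 of 10), which did not differ beyond their spread over all 10 mice. Kmt5b was above Kdm3a in 5 of 5 wild type mice and in 1 of 5 ΔGm15551 mice, and Ezh2 was above Mecom in 5 of 5 and 3 of 5.

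**Figure D3:**
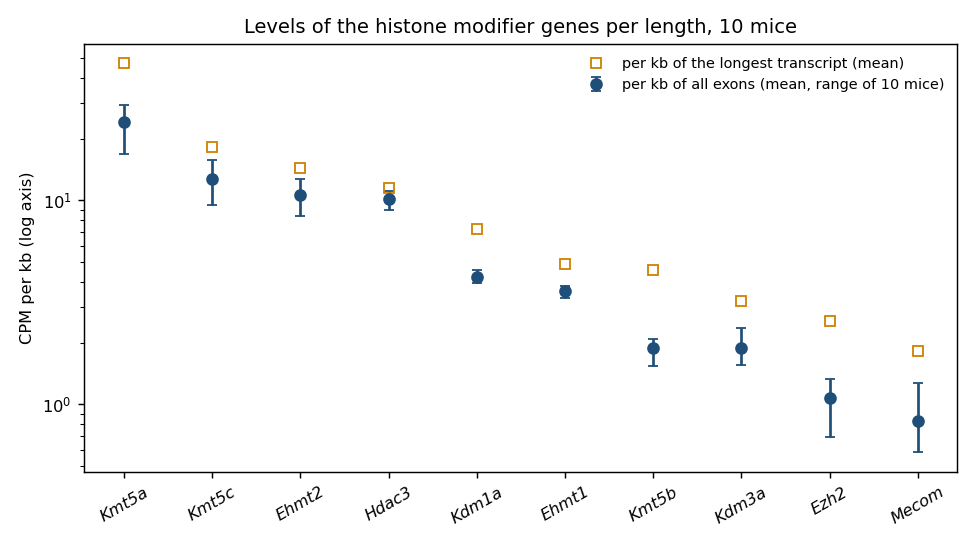
Level of each gene in CPM per kb (log axis), with blue points and bars for the mean and range of 10 mice per kb of all exons, and open squares for the mean per kb of the longest transcript. Kmt5a is highest and Mecom lowest by both lengths.

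Related enzymes were compared within each mouse, by an exact sign-flip permutation test (two-sided, 5 pairs). Kmt5c, per kb of exon, was 6.68-fold above Kmt5b, a related H4 lysine 20 methyltransferase, and was the higher one in all 10 mice (log2 ratio of Kmt5b to Kmt5c -2.74 ± 0.34, SD, n = 10, exact p = 0.00195, adjusted p = 0.00244). The size of this gap depended on the length used, with a log2 ratio of -2.001 per kb of the longest transcript and -1.89 by mean transcript length. Ehmt2 was 2.94-fold above Ehmt1, Kmt5a 12.7-fold above Kmt5b and Ezh1 4.66-fold above Ezh2, each in all 10 mice with the same exact p, the smallest that 10 mice allow. The exact p measures the spread between mice and not an error in gene length, which all mice share. Per kb of exon, of the longest transcript and of mean transcript length, the log2 ratio of Kmt5a to Kmt5b was 3.67, 3.35 and 3.18. In the same order it was -1.55, -1.55 and -1.47 for Ehmt1 to Ehmt2, and 2.22, 1.78 and 2.01 for Ezh1 to Ezh2. Kdm3a and Kdm3b, related H3 lysine 9 demethylases, were not told apart per kb of exon (log2 ratio -0.05 ± 0.20, SD, n = 10, range -0.35 to 0.27, exact p = 0.492), but per kb of the longest transcript the log2 ratio was -0.43 (adjusted exact p = 0.00195). By genotype, per kb of exon, the log2 ratio of Kdm3a to Kdm3b was 0.08 ± 0.18 in ΔGm15551 (range -0.13 to 0.27) and -0.17 ± 0.14 in wild type (range -0.35 to -0.03), given with no test.

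The genes also differed in how far they varied between mice of the same genotype. Ehmt1, Kdm1a and Hdac3 were the steadiest, with a standard deviation of log2 CPM within groups of 0.07, 0.08 and 0.09, lower than in all but 0.8, 1.4 and 2.8% of genes of similar level. Mecom (0.32), Kmt5a (0.28) and Ezh2 (0.26) varied most of the 10, at a spread above that of 70.8, 69.2 and 50% of genes of similar level. The deviations of each mouse from its group mean were then set against those of Ucp1 and of Pparg, the master regulator of adipocytes, and 0 of 20 correlations passed the exact permutation test after adjustment. The highest Pearson r was that of Kmt5a with Ucp1 (r = 0.87, exact p = 0.00618, adjusted p = 0.124, Spearman rho = 0.75, exact p = 0.0256, adjusted p = 0.361, n = 10). It rested on ΔGm15551 replicate 1 and wild type replicate 7, the mice with the least Ucp1, since r was 0.43 without them. Within the 7 mice of the lower number series r was 0.85. The highest Spearman rho was that of Kdm3a with Ucp1 (rho = 0.77, exact p = 0.0361, adjusted p = 0.361, n = 10), for which r was 0.53 (exact p = 0.196, adjusted p = 0.625) and 0.80 without the same mice. Within the lower number series r of Kdm3a with Ucp1 was 0.45, and over all 10 mice it was 0.33 after the correction for GC content. Kmt5a with Pparg gave r = 0.84 (exact p = 0.0140, adjusted p = 0.140) and rho = 0.44 (exact p = 0.234), and r fell to 0.17 without the same mice. The r of Kmt5c with Ucp1 was -0.27 (exact p = 0.429) and turned to 0.24 after the correction for GC content.

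**Figure D4:**
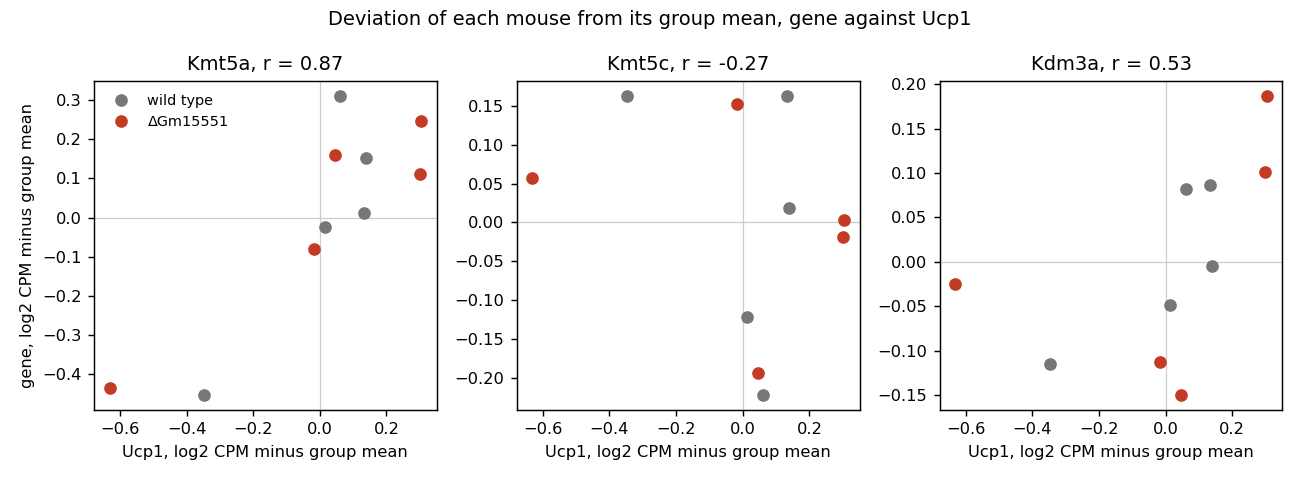
Deviation of each mouse from its group mean in log2 CPM, for Kmt5a, Kmt5c and Kdm3a (vertical axes) against Ucp1 (horizontal axes), in wild type (grey) and ΔGm15551 (red) mice. In the Kmt5a panel (r = 0.87), 1 mouse of each genotype lies far to the lower left of the other 8.

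The genes whose deviations were most like those of Kmt5c over the 10 mice, among 13731 genes, were Gm3558, Ubxn1, Sp140, Grik5 and Iah1, with r of 0.97, 0.97, 0.96, 0.96 and 0.96. After the correction for GC content these values were 0.21, 0.54, 0.43, 0.49 and 0.45. Among the other 9 of the 10 genes, Ehmt2 had the highest r with Kmt5c (r = 0.72, and 0.35 after the correction). Kdm3a had r = -0.06 with Kmt5c, and 0.72 after the correction. These correlations are a description, and all genes of a mouse come from the same library.

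Histone modifiers beyond the 10 were read from 9 lists of enzymes and complex partners. Of 93 names 92 were in the table and 89 were tested, and edgeR called 0 of them, with 3 at an unadjusted p under 0.05, all higher in ΔGm15551, and a median log2FC of -0.01. Over all genes tested, 1.59% had such a p, 132 higher and 87 lower, and 2 of the 3 were Kmt5c, picked on this contrast, and Kdm3a. The other was Hdac6, a deacetylase with many cytoplasmic targets, with 18.2 ± 2.06 CPM in ΔGm15551 against 15.3 ± 1.03 CPM in wild type (SD, n = 5 each). The log2FC of Hdac6 was 0.25 (SE 0.11) with an adjusted p of 0.9998 in edgeR, and in 4 of 5 ΔGm15551 mice it exceeded every wild type value. The 79 tested genes other than the 10 ranged from -0.29 to 0.29 in log2FC, 33 were above 0, beside 6830 of all 13732 genes. The groups stood apart in 0 of the 79, beside 31 genes higher and 13 lower of the 13732. In the H4K20 methyltransferase list the log2FC was above 0 in 2 of 3 genes, in the H4K20 demethylase and reader list in 0 of 3, in the H3K9 methyltransferase list in 5 of 14 and in the H3K9 demethylase list in 5 of 8. The count was 6 of 10 for the LSD1-CoREST complex, 10 of 16 for the deacetylases and NCoR complex, 3 of 13 for PRC2 and the H3K27 demethylases, 7 of 13 for the H3K4 enzymes and 2 of 9 for the acetyltransferases. Per kb of exon, the most abundant gene of these lists was Kmt5a (24.2) for H4K20 methylation, Rsbn1 (1.51) for its removal and reading, Ehmt2 (10.6) and Phf2 (6.15) for H3K9 methylation and demethylation, Hmg20b (21.9) for LSD1-CoREST, Gps2 (12.2) for the NCoR list, Rbbp7 (16.7) for PRC2, Dpy30 (16.7) for H3K4 and Kat8 (6.21) for acetylation.

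Among the marker genes of the tissue, edgeR called 0. Ucp1 was at 9135 ± 2143 CPM in ΔGm15551 against 8244 ± 1058 CPM in wild type (SD, n = 5 each, log2FC 0.15), Pparg at 179 ± 25.7 and 173 ± 30.8 (log2FC 0.05) and Prdm16 at 33.0 ± 5.73 and 32.7 ± 6.38 (log2FC 0.01). Of the 10 brown adipocyte, 6 common adipocyte, 10 skeletal muscle and 9 other tested marker genes, 0 had an adjusted or unadjusted p under 0.05, and their median log2FC was 0.08, -0.02, -0.26 and 0.02.  With the muscle level as a covariate the log2FC of Kmt5c was 0.36 and that of Kdm3a 0.30.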

How the data were processed

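Poly A RNA of iBAT was measured in 10 mice. According to the labels and the study's methods, the authors used cutadapt for trimming and Salmon for quantification on GENCODE M22 (GRCm38), and the values deposited by the authors were estimated counts (expected counts) per gene, given as whole numbers and not scaled to a common depth. How they were summed and whether strand was used is not given in the sources used here. A read that fits several transcripts is shared among them by estimate.

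The members and gene lists were chosen with earlier results of these data known. The test used edgeR 4.0.16 in R 4.3.3 (TMM, filterByExpr with minimum count 10 and minimum total 15, robust glmQLFit, glmQLFTest on genotype, Benjamini-Hochberg over 13732 genes, threshold 0.05). log2 CPM had a prior count of 2. Alternatives were DESeq2 1.42.0 size factors and Wald test, limma-voom (limma 3.58.1), no filter, leaving out each mouse, the replicate block and the same 6 mice without it, leaving out the higher-series wild type mice, a muscle covariate (mean log2 CPM of 10 muscle markers) and, chosen after seeing the data, a loess correction for transcript GC (span 0.3). Exon lengths and positions came from GENCODE M21 (GRCm38), which held 99.5% of the gene IDs, and promoters from RefSeq, where 9 of the 10 genes matched. Single measures used exact permutation tests, two-sided, within groups for correlations (14400 permutations). Genes named were the 10, Gm15551, Ucp1, Pparg, Prdm16, the compared partners, the highest gene per kb and any gene at an unadjusted p under 0.05 in each list, and the 5 genes most like Kmt5c. No pair of mice of a group agreed within sampling noise (chi-square per degree of freedom at least 11.3), so that none was counted as a duplicate. Depth limits the genes with few counts, and a 0 allows up to 3 counts, for counting error only.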

Additional observations from a re-analysis of the deposited data

Results flagged for a closer look

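Ucp1 in wild type replicate 7 was at 6436 CPM, below the 8265 to 9007 CPM of the other 4 wild type mice, and its gap to the nearest of them, divided by the range of the group, was 0.711 against a critical value of 0.71. Of 32 groups of mice searched, 1 was singled out in this way, and chance gives about 1.6. The same mouse had the lowest Kmt5a of all 10 mice (89.4 CPM) and the highest share of skeletal muscle counts (0.258%), and the part of either in the Ucp1 value was not tested.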

How the results depend on the processing

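In all 19 alternative fits 0 genes had an adjusted p under 0.05. Genes at an unadjusted p under 0.05, 219 of 13732 in the edgeR fit, were 322 of 30926 with the DESeq2 Wald test, 248 with limma-voom, 869 of 30984 without the filter (2.80%), 419 without ΔGm15551 replicate 1 and 404 without wild type replicate 7. The pairing was checked on replicate numbers 2, 5 and 7, present in both groups. Mice of the same number did not deviate together (r = 0.06, 0.07 and -0.46 over 1000 genes), while ΔGm15551 replicates 2 and 5 were most like the wild type mouse of their own number and replicate 7 most like wild type replicate 2. They were therefore taken to share only a number. With the number as a replicate block in these 6 mice, 0 genes were called. An unadjusted p under 0.05 was found for 397 of 13796 genes (2.88%), against 552 (4.00%) without the block. Of the 10 histone modifiers 0 had such a p with the block, against 2 without it. The log2FC with and without the block was 0.34 and 0.34 for Kmt5c, and 0.37 and 0.38 for Kdm3a. Without the 3 higher-series wild type mice Kmt5c alone of the 10 had an unadjusted p under 0.05, beside 278 of 14543 genes (1.91%). Without wild type replicate 2 Mecom joined Kmt5c and Kdm3a, beside 247 of 13905 genes (1.78%). Kmt5c was picked on this contrast, so these counts support nothing. The log2FC of Ehmt1 was 0.09 without the 3 higher-series wild type mice. The log2 ratio of Kdm3a to Kdm3b passed the exact test only with the longest transcript (-0.43). The causes were not tested.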

Other observations

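Correlations between the 10 genes were looked at after their values had been seen. Over the 45 pairs of deviations from group means, 0 passed the exact permutation test after adjustment (smallest adjusted p = 0.4375). Kmt5b and Ehmt2 ran opposite (r = -0.81, exact p = 0.00972, n = 10, and r = -0.55 after the correction for GC content), and Kmt5c and Ehmt2, the pair with the highest GC content among the 10, ran together (r = 0.72, exact p = 0.0274, adjusted p = 0.537, n = 10), with r of 0.35 after the correction for GC content.

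The ratio of Kmt5b to Kmt5c, read by genotype with no test because Kmt5c was chosen on this contrast, was -2.97 ± 0.26 on the log2 scale in ΔGm15551 (range -3.36 to -2.70) and -2.51 ± 0.26 in wild type (range -2.86 to -2.23, SD, n = 5 each), and the groups overlapped.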
